A study of Mus musculus with 2 samples.

Results

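Mir21a and Mir210 are single-copy miRNA genes of the mouse, known for growth and injury responses (miR-21a) and for the response to low oxygen (miR-210). They were chosen by name, as the rows of the count tables whose Ensembl ID carries the symbol Mir21a or Mir210 in GENCODE M21, and the choice was made with earlier results of these counts known. They are 2 of 1973 miRNA genes in the tables, and their levels are therefore given as a description with no test. The material was hindbrain tissue of strain B6NCrl mouse embryos at embryonic day 12.5, male and female pooled and labelled healthy, with no treatment or engineered allele named in the labels. Small RNA was sequenced as 1 group of 2 libraries. Replicate 1 pooled 120 embryos and replicate 2 pooled 88, and the labels call them biological replicates. Both pools carry the same donor label, so nothing beyond the replicate numbers and pool sizes says how far they are independent. The spread between them is that of 2 pools and not of single animals.

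MicroRNAs are cut from hairpin precursors by Drosha and Dicer, and the mature strand pairs with messenger RNAs mainly through its seed, bases 2 to 8 from the 5′ end. Transcription of miR-21 is switched on by growth and stress signals through factors such as AP-1 and STAT3, and its known targets include Pdcd4 and Spry genes, which restrain growth signalling. Transcription of miR-210 is switched on by hypoxia-inducible factor, and its known targets include the iron-sulfur cluster scaffold gene Iscu, which ties it to mitochondrial respiration, and Efna3, an ephrin ligand in vessel growth.

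The mature strands below identify what each count can contain, since a gene count sums both arms of its hairpin. They are from RefSeq on GRCm38.p6, which matched both genes, are written 5′ to 3′, and have the seed in capitals.
miR-21a-5p: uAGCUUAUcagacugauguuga
miR-21a-3p: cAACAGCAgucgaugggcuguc
miR-210-5p: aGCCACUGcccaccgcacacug
miR-210-3p: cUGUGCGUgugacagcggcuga
The 4 arms have 4 different seeds, so Mir21a and Mir210 do not form a seed family. Among 1738 mature mouse miRNAs in the RefSeq table, the seed of miR-21a-5p occurs in 1 other, miR-21c, and the seeds of the other 3 arms occur in no other. The miR-21 relatives differ from miR-21a-5p as follows.
miR-21b: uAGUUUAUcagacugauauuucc
miR-21c: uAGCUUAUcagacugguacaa
Counting from the 5′ end of miR-21a-5p, miR-21b carries C4U inside the seed, and G18A, G21U and A22C after it, and has 1 further base at its 3′ end. In miR-21c the differences are A16G, G18A, U19C, U20A and G21A, all outside the seed, and miR-21c ends 1 base earlier.

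The relatives contributed almost nothing to the hindbrain counts. Mir21c, on chromosome 8 with its mature strand at 128278188 to 128278208, had 0 counts in both libraries. Mir21b, on chromosome 3 at 29636768 to 29636790, had 0 counts in replicate 1 and 1 count in replicate 2. A count of 0 allows up to 3 counts, or 1.09 CPM in replicate 1 and 0.760 CPM in replicate 2, where CPM is counts per 1000000 counts assigned to miRNA genes. Limits and intervals of this kind describe counting error alone. Each of the 4 mature strands of Mir21a and Mir210, and also the first 18 bases of each, occurs in 1 annotated mouse miRNA hairpin. No run of 20 bases in either hairpin recurs in another annotated one, whereas such runs occur in 923 of the 1973 genes. Reads that match several positions in the genome are assigned to no gene, and by this comparison between hairpins both genes are outside the group with near-identical copies.

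Mir21a (ENSMUSG00000065455.1) lies on chromosome 11 from 86584067 to 86584158 on the minus strand of GRCm38, inside the last exon and 3′ UTR of the protein-coding gene Vmp1 on the same strand. Vmp1 encodes a membrane protein of autophagy. Mir210 (ENSMUSG00000065551.1) lies on chromosome 7 from 141221384 to 141221493 on the minus strand and overlaps no other GENCODE M21 gene. The only other annotated gene within 5 kb of it was Rassf7, on the opposite strand and 2726 bases away. Both are solitary hairpins, with no other counted miRNA gene within 10 kb. The nearest to Mir21a was Mir301, 529 kb away, and the nearest to Mir210 was Mir7063, 399 kb away.

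The hairpins differ in base composition. The Mir210 hairpin is shown because its G and C content is extreme among the detected genes, with both mature arms in capitals.
Mir210 hairpin: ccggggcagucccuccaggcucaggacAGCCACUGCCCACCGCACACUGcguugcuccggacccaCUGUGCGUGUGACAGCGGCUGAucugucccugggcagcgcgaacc
G and C made up 69.1% of its 110 bases, and 96.2% of the 371 genes with at least 10 counts in both libraries (called detected) had a lower share. The Mir21a hairpin of 92 bases had 45.7%, below the median of 50.6% over the detected genes. Ligation and amplification act differently on each sequence, so a difference in level between miRNAs carries an error that these counts do not show, whereas the same miRNA can be compared between libraries.

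Mir21a was an abundant miRNA of the embryonic hindbrain. It had 16091 counts in replicate 1 and 26166 in replicate 2. Scaled to depth, the level was 5821 CPM in replicate 1, with an exact 95% Clopper-Pearson interval from 5732 to 5911, and 6630 CPM in replicate 2 (6550 to 6711). Replicate 2 was the higher library, and the counting intervals do not overlap. The mean was 6226 ± 572 CPM (SD, n = 2), or 0.623% ± 0.0572 of the assigned counts. It ranked 42 in replicate 1, 37 in replicate 2 and 41 by the mean, above 88.9% of the 371 detected genes, which are 18.8% of the 1973. In all, 105 genes reached a mean of 1000 CPM, and Mir21a was among them. Reads matching several positions (32.7% of all reads in replicate 1 and 33.4% in replicate 2) are left out of these counts. Genes with near-identical copies can therefore be undercounted, and the ranks and shares of Mir21a and Mir210 may be too high.

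Mir210 was about an order of magnitude lower and was also well above the detection limit. It had 1641 counts in replicate 1 and 2424 in replicate 2. Its level was 594 CPM in replicate 1, with an exact interval from 565 to 623, and 614 CPM in replicate 2 (590 to 639). The counting intervals of the libraries overlap. The mean was 604 ± 14.6 CPM (SD, n = 2), or 0.0604% ± 0.00146 of the assigned counts. It ranked 132 in replicate 1, 126 in replicate 2 and 130 by the mean, above 65.0% of the detected genes, whose median was 183 CPM.

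**Figure D1:**
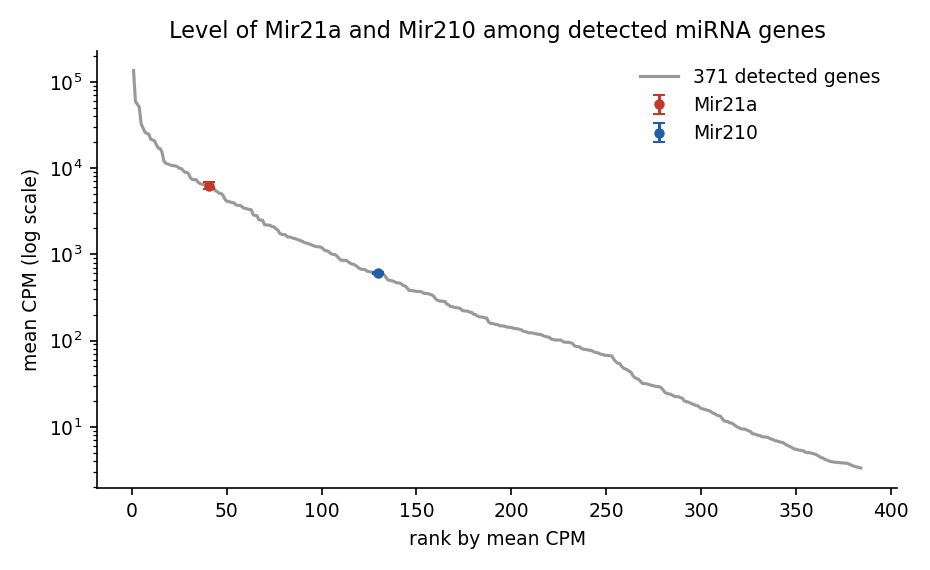
Mean CPM (log scale) against rank by mean CPM for the 371 detected miRNA genes (line), with Mir21a and Mir210 as points and bars for ± 1 SD over the 2 libraries. Mir21a sits at rank 41 and 6226 CPM, and Mir210 at rank 130 and 604 CPM.

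Mir21a exceeded Mir210 in both libraries. The ratio of their counts was 9.81 in replicate 1 (exact 95% interval 9.32 to 10.3) and 10.8 in replicate 2 (10.4 to 11.3), with a mean of 10.3 ± 0.699 (SD, n = 2). The gap between the genes was thus far larger than the spread of either gene between the pools. As both counts come from the same library, this ratio does not depend on how the libraries are scaled. The series has bulk tissue only, so fewer cells that make a miRNA and less of it per cell cannot be told apart.

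The tables have no header, and the column with nearly all assigned counts was read as the hairpin's own strand, so that most reads at both loci fall there largely follows from that reading. In the column read as the opposite strand, Mir21a had 2 counts in replicate 1 and 0 in replicate 2, and Mir210 had 1 and 0. These values are at or below the limit of 3 counts, so counting both strands together changes neither gene's count beyond counting error. The ranks by mean do depend on this choice, since other genes gain counts. With both strands Mir21a ranked 42 and Mir210 ranked 136.

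The 2 libraries were closer to each other for Mir210 than for Mir21a. The level of Mir21a in replicate 2 over that in replicate 1 was 1.14 (exact 95% interval 1.12 to 1.16), a log2 ratio of 0.19. For Mir210 the ratio was 1.03 (0.971 to 1.10), a log2 ratio of 0.05. The coefficient of variation over the libraries was 9.19% for Mir21a and 2.41% for Mir210. Neither gene reached a 1.5-fold difference, which 15.5% of the 393 genes averaging 10 counts or more did, or a 2-fold one, which 4.58% of them did. A smaller absolute log2 ratio was found in 38.9% of the 393 genes for Mir21a and in 10.2% for Mir210. The median absolute log2 ratio over the 393 genes was 0.24 and the median signed value was -0.04.

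Genes of similar abundance were compared next. Of 46 other genes within 2-fold of the mean level of Mir21a, 22 had a smaller absolute log2 ratio, and the 46 ranged from -0.61 to 0.42. The median absolute log2 ratio of these genes was 0.22, close to the value of Mir21a. Of 60 other genes within 2-fold of Mir210, 7 had a smaller one, and the 60 ranged from -0.89 to 1.98 with a median absolute value of 0.23. The difference between pools was at least 1.5-fold in 2 of the 46 and in 6 of the 60.

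**Figure D2:**
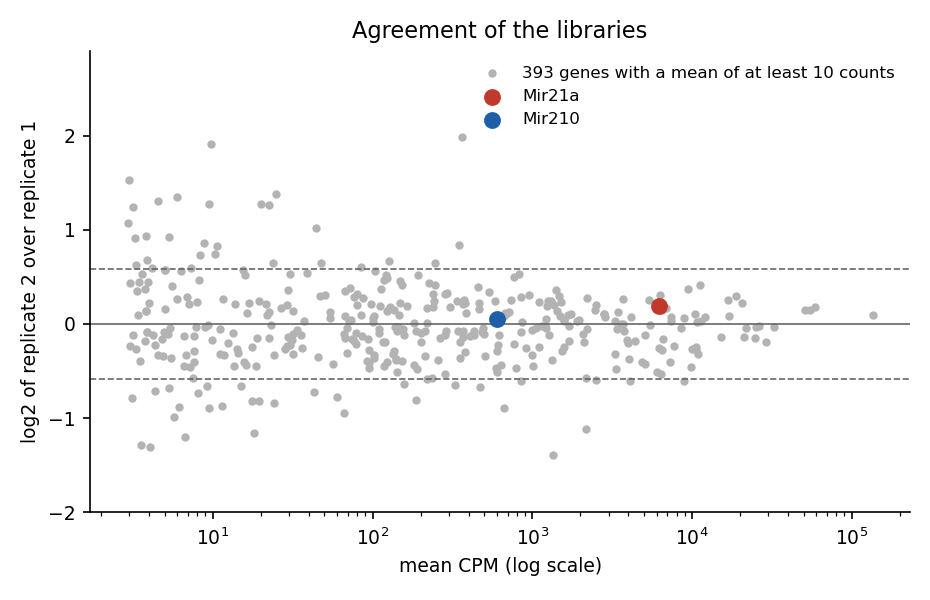
Log2 ratio of replicate 2 over replicate 1 against mean CPM (log scale) for the 393 miRNA genes averaging 10 counts or more, with 0.5 added to each count, and dashed lines at 1.5-fold. Mir21a (0.19) and Mir210 (0.05) both lie between the lines.

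The order of genes around Mir21a was not resolved by these libraries. Just above it in mean level were Mir183, a miRNA of sensory organs, with 7585 CPM in replicate 1 and 5253 in replicate 2, and Mir449a, known from multiciliated cells, with 5582 and 6929. Just below it were Mir296, an imprinted miRNA of the Gnas region, with 6760 and 5681 CPM, and Mir23a, with 7107 and 4995. The range of Mir21a over the libraries overlapped that of all 4, and of 11 genes in all, which lay at ranks 34 to 47. Mir23a shares a 20-base run with another hairpin, so its count is less certain.

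The range of Mir210 overlapped that of 10 genes, at ranks 122 to 134. The neighbours above it were Mir540, with 599 CPM in replicate 1 and 618 in replicate 2, and Mir325, with 663 and 545. Those below were Mir501, with 704 and 496 CPM, and Mir374b, with 684 and 494. All 4 overlapped it. Mir325, Mir501 and Mir374b were lower in replicate 2, while Mir210 and Mir540 were slightly higher there.

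**Figure D3:**
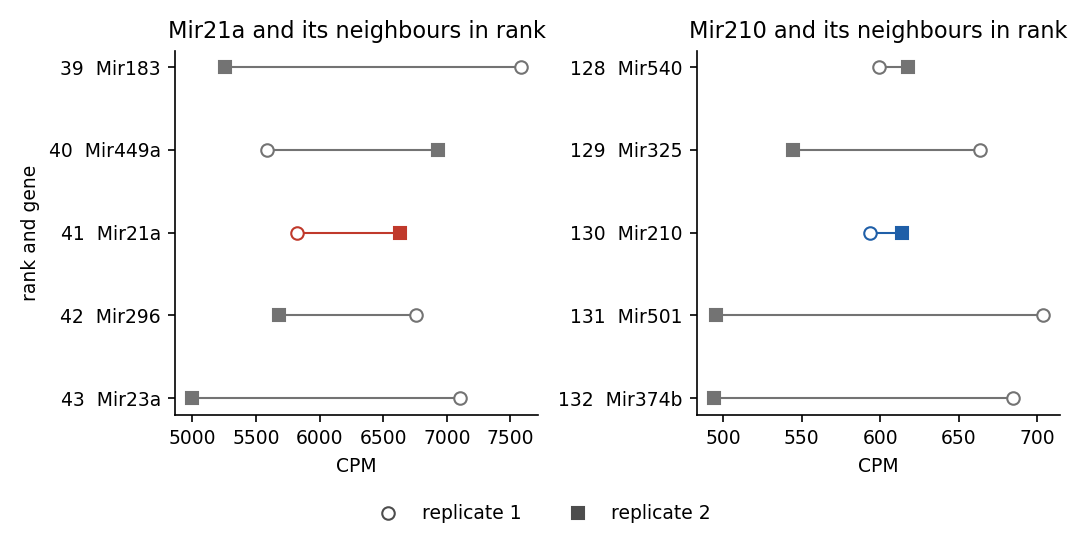
CPM in replicate 1 (open circles) and replicate 2 (filled squares) for Mir21a (left) and Mir210 (right) and the 2 genes above and 2 below each in rank, with a line joining the libraries of a gene; the axes do not start at 0. Every neighbour's range overlaps that of the gene in colour, and the line of Mir210 (594 to 614 CPM) is short beside those of Mir325, Mir501 and Mir374b.

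The genes with the most similar values were found by the Euclidean distance in log2(CPM + 1) over the 2 libraries, among 275 genes averaging 100 counts or more. With 2 points a gene this is likeness in level and in the ratio of the pools only. For Mir21a they were Mir369 (6126 and 6775 CPM, distance 0.0799), Mir449a (0.0877) and Mir127 (6448 and 7264 CPM, 0.198). Mir369 and Mir127 both belong to the imprinted Dlk1-Dio3 region. For Mir210 they were Mir540 (0.0155), Mir671 (619 and 640 CPM, 0.0831) and Mir421 (648 and 598 CPM, 0.131).

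Mir210 was in the middle of the miRNAs that have been linked to low oxygen in cultured cells. Of 22 listed genes, 21 had a row under their symbol and all of these were detected, with 8.10% ± 0.0326 of the counts (8.07% in replicate 1 and 8.12% in replicate 2). Mir24-1 had no matched row and is not analysed here. The highest were Mir26b (21980 CPM in replicate 1 and 21345 in replicate 2), Mir322 (19078 and 22188), Mir23b (11586 and 9544), Mir181c (10036 and 10790) and Mir23a (7107 and 4995). Mir210 ranked 11 of the 21 and gave 0.735% of the list's counts in replicate 1 and 0.757% in replicate 2. A 20-base run in common with another hairpin was found in 16 of the 21 genes, whose counts miss reads that match several copies. The 5 without one were, from high to low, Mir26b, Mir322, Mir181c, Mir210 and Mir155, the last with 209 and 195 CPM. Between the pools, 1 gene of the list was at least 1.5-fold higher in replicate 2 (Mir181b-1, 28.9 against 59.0 CPM) and 1 was lower (Mir103-1, 6.51 against 4.05 CPM). Mir103-1 had only 18 counts in replicate 1 and 16 in replicate 2, close to the minimum mean of 10 for a ratio. Mir199a-1 (12.3 against 18.5 CPM) was just past 1.5-fold in plain CPM and was not counted, since 0.5 is added to each count before the ratio. These 3 genes were named after their values were seen. Together the 2 counted genes are 9.52% of the list, against 15.5% of all 393 genes, of which 7.38% were higher and 8.14% lower. Among the 275 genes averaging 100 counts or more, 8% were that far apart. The median log2 ratio of the list was 0.11, against -0.04 over the 393 genes.

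Mir21a ranked 6 of 14 listed miRNAs known for promoting growth or found raised in tumours. All 14 were detected and together held 11.7% ± 0.852 of the counts, with 11.1% in replicate 1 and 12.3% in replicate 2. Mir21a gave 5.25% of the list's counts in replicate 1 and 5.39% in replicate 2. Some members of the miR-17-92 cluster and its paralogue on the Mcm7 locus led the list. Mir17 had 48251 CPM in replicate 1 and 53339 in replicate 2, Mir20a had 16839 and 20763, and Mir93 had 15315 and 18302. Mir106b (10624 and 10794 CPM) and Mir18 (7141 and 7524 CPM) were also above Mir21a in both libraries. Other listed members of both clusters were below Mir21a in both libraries (named after their values were seen). Mir92-1 had 5556 CPM in replicate 1 and 4209 in replicate 2, and Mir25 had 682 and 744. Mir19a had 83.6 and 124 CPM, and Mir19b-1 had 23.5 and 21.3. Mir92-1 and Mir19b-1 each share sequence with another hairpin, so their counts are less certain. Some other listed miRNAs that are often raised with miR-21 in tumours were much lower here. Mir155, of activated leukocytes, had 209 and 195 CPM, Mir221 had 182 and 183, Mir222 had 106 and 80.3, and Mir31 had 111 and 80.1 (the last 3 named after their values were seen). None of the 14 reached a 1.5-fold difference between the pools, against 15.5% of all 393 genes. Among the 275 genes averaging 100 counts or more, as most of the list did, the share was only 8%. The median log2 ratio of the list was 0.05, against -0.04 over the 393.

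**Figure D4:**
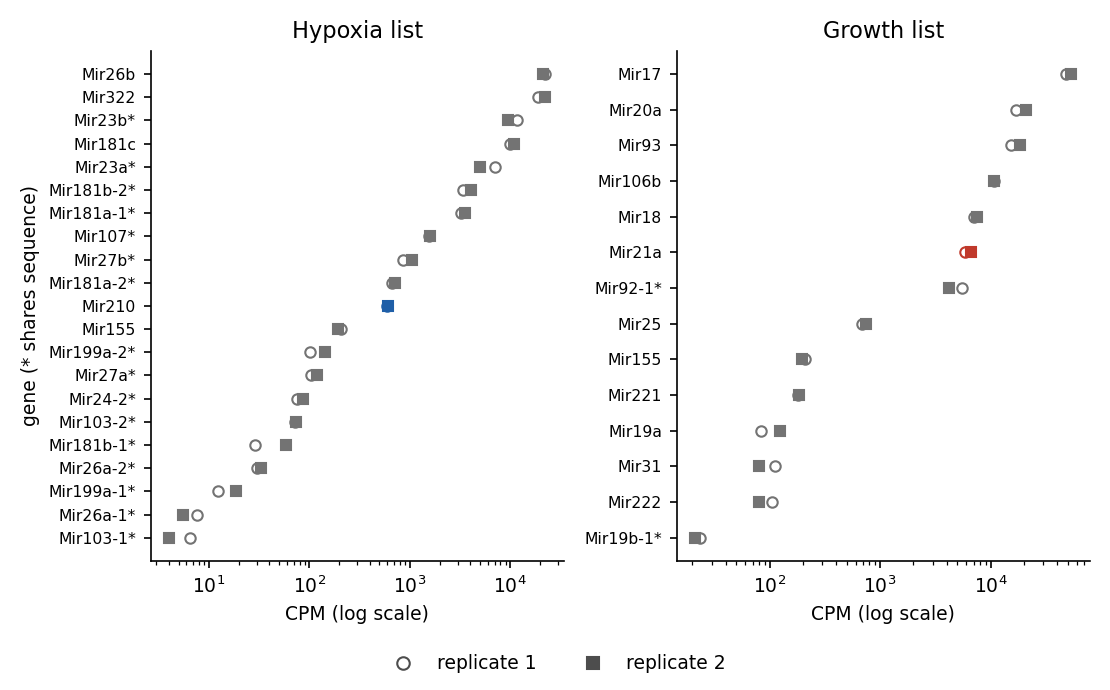
CPM (log scale) in replicate 1 (open circles) and replicate 2 (filled squares) for the 21 matched genes of the hypoxia list (left, Mir210 in blue) and the 14 of the growth list (right, Mir21a in red), ordered by mean, with an asterisk for genes that share a 20-base run with another hairpin. Mir210 is 11 of 21 and Mir21a is 6 of 14.

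Both miRNAs are known from many cell types, and the tissue held miRNAs of several. Of the neural and hindbrain list, 5 of 8 matched genes were detected, led by Mir10a (26347 CPM in replicate 1 and 25880 in replicate 2) and Mir10b (15998 and 14531) of the Hox clusters and by the neuronal Mir137 (3263 and 3342). All 5 matched miR-9 and miR-124 genes share sequence with other copies and ranged from 0.760 CPM for Mir124a-3 in replicate 2 to 398 CPM for Mir9-3 in replicate 2 (both named after their values were seen). In no matched gene of the cell type lists were both counts 0.

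The erythroid list (all 3 genes detected) summed to 298 CPM (replicate 1) and 355 CPM (replicate 2), less than Mir210 alone, with Mir451a at 254 and 316 CPM. Of the leukocyte and microglia list, 3 of 4 genes had a row under their symbol, all detected, and they came to 555 and 452 CPM. The endothelial Mir126a had 25987 and 23442 CPM. The mesenchyme and smooth muscle list (all 6 detected) came to 21279 and 21681 CPM, led by Mir214 (12145 and 9714) and Mir143 (8223 and 10663). Mir214 was lower in replicate 2 and Mir143 higher, so near-equal sums do not mean that each gene was level. The median log2 ratio of this list was 0.47, against -0.04 over the 393 genes. The epithelium list (all 7 detected) came to 9660 and 6470 CPM, with 4 of the 7 at least 1.5-fold lower in replicate 2, as were 8.14% of all 393 genes. Of the 3 leukocyte and microglia genes, 1 was lower by this measure (Mir146, 53.5 against 32.4 CPM), and no tested gene of the other 4 cell type lists was that far apart in either direction. Among the highest epithelial genes, Mir429 (2950 CPM in replicate 1 and 1362 in replicate 2) was 1 of the 4 lower ones. The others were Mir200c (1959 and 746 CPM), Mir200b (866 and 468 CPM) and Mir141 (238 and 136 CPM). Mir203 (2230 and 2155 CPM), Mir205 (1271 and 1459 CPM) and Mir200a (146 and 143 CPM) were not lower by this measure. Mir200c, Mir200b, Mir141 and Mir200a were named after their values were seen. The part of each cell type in the levels of Mir21a and Mir210 was not tested.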

How the data were processed

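The deposited tables hold raw read counts per miRNA gene, which the authors derived from mm10 alignments and GENCODE M4, per the text file deposited beside each table. The sources used here do not name the aligner, trimming or versions. The tables, which lack a header, have a column for both strands and 1 for each strand. The column that holds nearly all assigned counts was taken as the gene's own strand, a reading from layout and totals. Rows without a gene were not used. They held 15.7% (replicate 1) and 16.2% (replicate 2) of all reads as unmapped, 32.7% and 33.4% as matching several positions, and 3.98% and 3.72% as outside miRNA genes. The depth was 2764276 and 3946444 assigned counts.

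Gene IDs, version removed, were looked up in GENCODE M21 (GRCm38, the assembly of mm10), which named 1894 of 1973 genes. CPM is per 1000000 assigned own-strand counts. Ratios between libraries over all genes used 0.5 added to each count and genes averaging 10 counts or more. Single ratios and shares have exact Clopper-Pearson 95% intervals. The counts differed by more than sampling noise (chi-square 104 per degree of freedom over the 393 genes), so the tables are not copies of each other. The exact intervals on ratios between libraries hold counting error only and so leave out this further variation between the pools.

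No test between groups was made, since there is 1 group. The members and lists were chosen with earlier results of these data known. The genes named are Mir21a and Mir210, the 2 above and 2 below each in rank, the 3 nearest to each in the profile, relatives by seed or name, up to 5 of the hypoxia and growth lists and 3 of each cell type list with the highest mean CPM, and Mir99a. Others were named for their position in the genome or, where stated, after their values were seen. Mir24-1, Mir9-1 and Mir142 had no row under their symbol and were not analysed here. The alternatives were other scalings (TMM in edgeR 4.0.16, DESeq2 1.42.0 size factors, R 4.3.3), both strands together, other count minimums, a pseudocount of 1, all reads as denominator, and leaving out a library, Mir99a or genes that share sequence. The ratio calls were tested on simulated data with counting error alone, so that test does not cover the larger differences between these pools. The software was matplotlib 3.10.9, SciPy 1.17.1, pandas 2.3.3 and numpy 2.4.6 under Python 3.11.15.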

Additional observations from a re-analysis of the deposited data

How the results depend on the processing

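Of 65 alternative values, 49 stayed within the spread between the libraries, the counting interval or, for counts of genes, 1.5 times the value reported, and 16 moved beyond it. The 49 include values that could not move. With 2 libraries, a mean, list share or Mir21a over Mir210 ratio from 1 library always lies within their SD. Without Mir99a in the totals the mean of Mir21a was 7198 CPM and that of Mir210 was 698 CPM, and per 1000000 of all reads they were 2864 and 278, since the denominator changes. The rank of Mir21a was 37 to 42 and that of Mir210 was 126 to 132 when either library was left out, and with both strands counted Mir210 ranked 136. The ratio of Mir21a between the libraries was 1.17 with TMM and 1.17 with DESeq2 size factors, against 1.14. For Mir210 it was 1.06 (95% interval 0.994 to 1.13) with TMM and 1.07 (1.00 to 1.14) with DESeq2 size factors, so its small difference depends on the scaling. Genes at least 1.5-fold apart numbered 22 of 275 averaging 100 counts or more and 276 of 735 with at least 1 count in either library, against 61 of 393. Genes at least 2-fold apart numbered 4 and 191 under these minimums, against 18. The hypoxia list held 7.90% with both strands, 5.82% with genes that share sequence left out of both the list and the totals, and 9.36% with Mir99a left out of the totals. The growth list held 13.5% without Mir99a. No paired analysis was possible because there is 1 group.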
